A study of Mus musculus with 83 samples.

Results

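The complement genes C1ra, C1s1, Serping1, C4b, C3, C2, Cfb, Cfd and Cfi were followed in the colon of ageing mice. They were taken by name as 9 rows of a table of 37764 genes, with earlier results of these data known. RNA was sequenced from 83 male mice of the strain C57BL/6J/Ukj that were aged without any treatment. The ages of 3, 9 and 15 months had 16 mice each, the age of 24 months had 17 and the age of 28 months had 18. The tissue was the proximal colon, taken whole, so that each library mixes RNA of several cell types. In such bulk samples, fewer cells of a type and less RNA per cell cannot be told apart. The labels assign the libraries to 3 preparation batches, and each batch held between 4 and 7 mice of every age.

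Complement is a cascade of proteases and their substrates in blood and tissue fluid. In the classical pathway the recognition protein C1q binds the proteases C1r and C1s, of which C1s cleaves C4 and C2. In the alternative pathway factor D cleaves factor B. Both routes form enzymes that cleave C3, the central component. Serping1 encodes C1 inhibitor, which shuts off C1r and C1s, and Cfi encodes factor I, which degrades the active fragments of C3 and C4. The liver makes most of the plasma proteins, while macrophages, fibroblasts, epithelial cells and adipocytes make components locally, and factor D is best known as a product of adipocytes, for which it is also called adipsin.

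The counts of a mouse summed to between 23026370 and 75838290 read pairs. The 8 colon epithelium markers, led by the mucin gene Muc2, summed to between 21639 and 40369 CPM (read pairs relative to the TMM-adjusted library total) in every mouse, as the tissue label says. The lowest of these sums belonged to replicate 16 of the 15-month mice. Pancreatic acinar markers summed to 229 and 104 CPM in replicates 11 and 16 of the 24-month mice and to 115 CPM in replicate 14 of the 28-month mice, and their median was between 0.289 and 0.340 CPM at each age. These 4 mice stay in the values below, and the counts of members called were the same without them, in the 3 and in the 1, at each comparison.

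C2 (chr17:34862604-34898265), Cfb (chr17:34856374-34862518) and C4b (chr17:34728380-34743882) lie close together on the minus strand of chromosome 17, in GRCm38 coordinates, and C3 (chr17:57203970-57228136) lies farther along the same chromosome. C1ra (chr6:124512405-124523443) and C1s1 (chr6:124530345-124542359) are neighbours on opposite strands of chromosome 6. Serping1 is at chr2:84765387-84775444, Cfd at chr10:79890853-79892655 and Cfi at chr3:129835884-129875332. In the annotation used here, a readthrough gene, Gm20547, shares 79.5% of the exon bases of Cfb and 42.8% of those of C2 on the same strand. That gene was not analysed here, and how read pairs in the shared exons were assigned is not given in the sources used here, so the levels of Cfb and C2 are uncertain. C4b, C1ra and C1s1 have close paralogues, C4a, C1rb and C1s2, and read pairs that mapped to both copies were not counted.

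Promoter windows from RefSeq on GRCm38.p6 matched 4 of the 9 genes, and 3 are shown because they belong to a gene that changed strongly with age (C3), a gene of the C1 complex that changed with it (C1s1), and a gene that followed another course (Cfd). Each is the 250 bases before the transcription start, 5′ to 3′ on the gene's strand, and capitals mark matches to the motifs searched.
C3, chr17:57228137-57228386, minus strand: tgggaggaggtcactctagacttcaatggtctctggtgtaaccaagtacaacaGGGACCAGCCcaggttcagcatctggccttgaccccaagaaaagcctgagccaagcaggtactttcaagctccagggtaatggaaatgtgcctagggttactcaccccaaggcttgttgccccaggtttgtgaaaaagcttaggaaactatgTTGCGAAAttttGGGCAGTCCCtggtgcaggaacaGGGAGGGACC
C1s1, chr6:124542360-124542609, minus strand: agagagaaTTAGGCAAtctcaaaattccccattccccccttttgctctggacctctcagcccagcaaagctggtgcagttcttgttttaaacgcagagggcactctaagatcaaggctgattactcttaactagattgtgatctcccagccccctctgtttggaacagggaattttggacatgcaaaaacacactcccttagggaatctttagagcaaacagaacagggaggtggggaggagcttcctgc
Cfd, chr10:79890603-79890852, plus strand: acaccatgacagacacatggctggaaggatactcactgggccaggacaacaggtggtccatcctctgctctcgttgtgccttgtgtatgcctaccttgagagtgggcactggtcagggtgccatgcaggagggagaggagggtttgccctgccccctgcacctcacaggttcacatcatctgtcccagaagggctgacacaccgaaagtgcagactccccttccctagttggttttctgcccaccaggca

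The motifs were the interferon-gamma site GAS (TTCNNNGAA), the core of the interferon response element ISRE, a general NF-kB site and a C/EBP site (TTGCNNAA), on both strands, and the TATA box (TATAAA) on the gene's strand, chosen with the sequences known. The C3 window held the C/EBP letters as TTGCGAAA, 45 to 38 bases before the start, and the NF-kB letters at 3 places, GGGACCAGCC, GGGCAGTCCC and GGGAGGGACC, of which the last ends 1 base before the start. The C1s1 window held the C/EBP letters in reverse as TTAGGCAA, 242 to 235 bases before the start. No match overlapped another, and the windows of Cfd and C1ra held none of these letters. A further C1s1 window, which reaches 38 bases into the annotated gene and is not printed, held the NF-kB letters as GGCCACTCCC. C1ra is not printed because 216 of its 250 bases lie inside the annotated gene. Over all 32851 windows of this length, 9.56% held the C/EBP letters, 17.6% the NF-kB letters, 7.02% GAS, 2.98% the ISRE core and 7.59% the TATA box, and a match is a description of the letters, not a site in use.

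The levels of the genes were compared per length, as TPM (length-normalized transcript abundance) over the 83 mice. Serping1 was the most abundant with 107 ± 24.3 TPM (SD, n = 83), followed by Cfd (84.6 ± 100.2), C1s1 (69.3 ± 14.6), C3 (49.4 ± 23.5), C4b (34.6 ± 10.03), C1ra (22.6 ± 5.88), Cfb (9.26 ± 1.64), C2 (2.18 ± 0.54) and Cfi (0.094 ± 0.053). This order is by the mean, and by the median Cfd with 59.2 TPM lay below C1s1 with 65.4 TPM. From Serping1 down to C1ra the ranges of mean ± SD of neighbours overlapped, and from C1ra to Cfi they did not. Cfi had 208 counts in all, with 0 in 4 mice and at most 7 in a mouse, and was the only member that did not pass the filter on low counts. Its median was between 0.055 and 0.080 CPM at every age, and a change with age was not detectable at this depth.

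**Figure D1:**
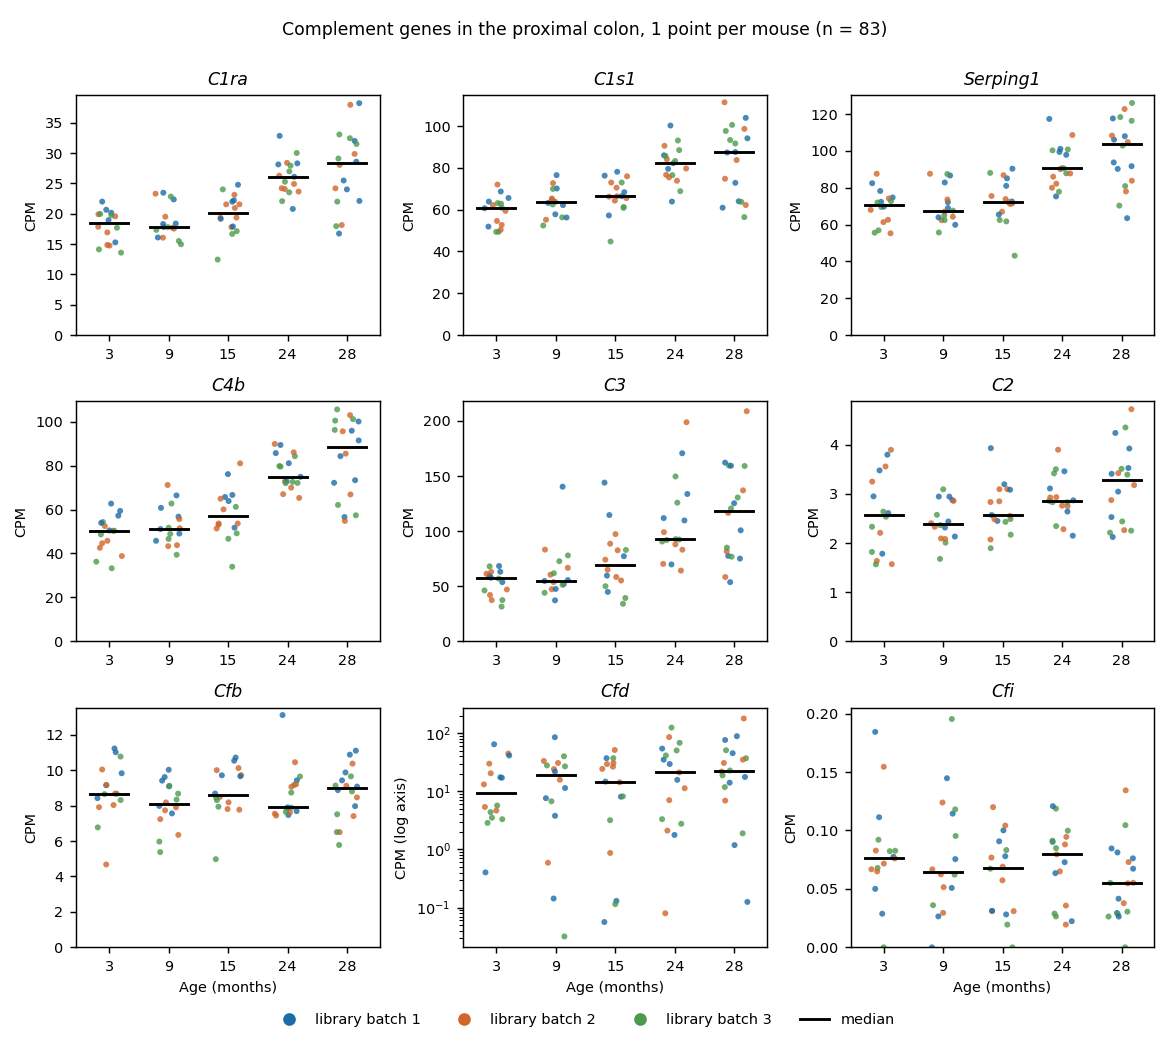
Level of each complement gene in CPM (y axis, logarithmic for Cfd only) in every mouse by age in months (x axis), coloured by library batch, with the median of each age as a bar. C1ra, C1s1, Serping1, C4b and C3 sit higher at 24 and 28 months than at 3 to 15 months, the medians of Cfb lie between 7.90 and 8.97 CPM, and Cfd spreads widely at each age, at 3 months from 0.403 to 64.8 CPM.

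Levels rose between 15 and 24 months for 5 of the 8 members tested, C1ra, C1s1, Serping1, C4b and C3, and these 5 and C2 were higher at 28 than at 3 months. The other neighbouring ages, which lie closer together in months, gave no member past the threshold. Changes were tested with edgeR's quasi-likelihood F-test over 18325 genes with library batch in the model, and called at an adjusted p below 0.1 (Benjamini-Hochberg). Between 15 and 24 months 13.5% of all genes were called, 6.28% as higher and 7.24% as lower at 24 months, so the 5 of 8 members called higher are set against 6.28%. The median log2 change of the 8 members was 0.37 and that of all genes tested was 0.00.

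Both proteases of the C1 complex were among the 5. C1ra ranged from 12.4 to 24.8 CPM with a median of 20.2 in the 16 mice of 15 months, and from 20.8 to 32.8 CPM with a median of 26.1 in the 17 mice of 24 months. All 17 older mice were above the 15-month median and 11 above the highest 15-month mouse, so the groups overlapped only in part. The log2 change was 0.39 ± 0.09 (SE, adjusted p = 0.00175). C1s1, which encodes the protease that cleaves C4 and C2, had medians of 66.4 CPM at 15 months (44.8 to 78.1) and 82.2 CPM at 24 months (63.9 to 100.3). Here, 11 of the 17 mice of 24 months exceeded every 15-month mouse, and the log2 change was 0.30 ± 0.07 (SE, adjusted p = 0.00459).

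The inhibitor of both proteases moved with them. Serping1 had a median of 72.4 CPM at 15 months (43.1 to 90.4) and of 90.6 CPM at 24 months (75.3 to 117), all 17 older mice lay above the 15-month median, and the log2 change was 0.35 ± 0.08 (SE, adjusted p = 0.00206).

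Both substrates with a thioester, C4 and C3, were higher at 24 months as well. C4b, which encodes C4, went from a median of 56.9 CPM (33.9 to 81.1) to 74.9 CPM (65.3 to 89.9), with 17 of 17 mice above the 15-month median and 6 above its highest mouse. Its log2 change was 0.42 ± 0.09 (SE, adjusted p = 9.88e-04). C3 had the largest change of the 5 and the widest spread, with a median of 69.5 CPM at 15 months (34.0 to 144) and 92.7 CPM at 24 months (64.1 to 199). Only 3 of the 17 older C3 values exceeded the highest 15-month value, and the log2 change was 0.59 ± 0.17 (SE, adjusted p = 0.0180).

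The other 3 members did not pass the test in this step. C2, the protease that joins C4, changed by 0.13 ± 0.11 on the log2 scale (SE, adjusted p = 0.476), with medians of 2.56 and 2.86 CPM from 60 to 165 counts per mouse. Cfb, the counterpart of C2 in the alternative pathway, had medians of 8.58 and 7.90 CPM, and the 95% interval of its fold change ran from 0.893 to 1.11. Cfd had medians of 14.5 and 21.2 CPM, but its 95% interval ran from 0.867-fold to 5.02-fold (adjusted p = 0.314), so that neither a large rise nor a small fall could be told from the spread between mice.

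**Figure D2:**
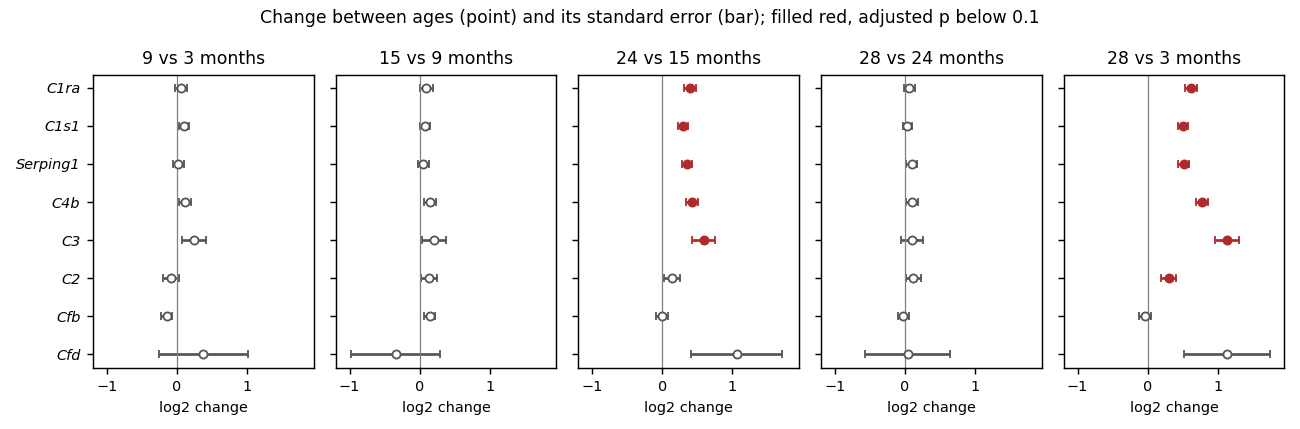
Log2 change (x axis) of the 8 members tested, 1 panel for each comparison of ages, later minus earlier, with the standard error as a bar and filled red points where the adjusted p was below 0.1. C1ra, C1s1, Serping1, C4b and C3 are filled at 24 vs 15 months and, with C2, at 28 vs 3 months, and no member is filled in the other 3 panels.

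Within the single batches, the 5 genes were higher at 24 than at 15 months in each of the 3 batches, but 0 of the 8 members passed the adjusted threshold in a batch, with 4, 4 and 5 of them at an unadjusted p below 0.05 in batches 1, 2 and 3. The log2 changes in these batches were 0.37, 0.30 and 0.57 for C1ra, 0.26, 0.22 and 0.46 for C1s1, and 0.33, 0.27 and 0.52 for Serping1. They were 0.33, 0.34 and 0.69 for C4b and 0.44, 0.44 and 1.06 for C3. Each batch held 4 to 7 mice per age, and only 14, 189 and 27 genes in all were called in it.

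In the single steps before 15 months and after 24 months no member passed the test. The span from 3 to 15 months was not tested as a whole, so these steps do not show that levels were flat over it. The change was above 0 for 6 of 8 members from 3 to 9 months and for 7 of 8 from 9 to 15 months. The 2 log2 changes were 0.11 and 0.14 for C4b, and 0.24 and 0.20 for C3. Between 3 and 9 months 8.69% of all genes were called and 0 of 8 members, and between 9 and 15 months 0.431% of all genes and 0 of 8 members. Between 24 and 28 months the share was 11.7%, again with 0 of 8 members called by edgeR. In these 3 comparisons 0 of 8 members had an unadjusted p below 0.05, and DESeq2 called 0 as well. The 95% interval of the fold change from 24 to 28 months ran from 0.933 to 1.12 for C1s1, from 0.934 to 1.17 for C1ra and from 0.861 to 1.33 for C3.

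The mice of 28 months were spread more widely than those of 24 months in several genes. The SD went from 7.72 to 18.0 CPM for C4b, from 3.02 to 6.44 CPM for C1ra, from 8.97 to 16.9 CPM for C1s1, from 11.3 to 18.5 CPM for Serping1, and from 0.459 to 0.792 CPM for C2. In C4b, 9 of the 18 mice of 28 months lay above every 24-month mouse and 4 below every one. The low mice were largely shared, since the 6 lowest mice of 28 months were the same 6 for C1ra and C1s1, 5 of these were among the 6 lowest for Serping1, and 3 mice were among the 6 lowest for all of C1ra, C1s1, Serping1, C4b and C3. For Cfb, 3 of its 6 lowest mice were shared with C1ra. This spread was not tested.

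Over the whole range from 3 to 28 months, 49.4% of all genes were called, 23.5% as higher and 25.9% as lower at 28 months, beside 6 of 8 members called higher and 0 lower. The median log2 change of the members was 0.56, against -0.01 over all genes. Among the called members C3 had the largest change, from a median of 57.2 CPM (31.4 to 68.3) to 119 CPM (53.6 to 209), with 16 of 18 mice of 28 months above every 3-month mouse and a log2 change of 1.13 ± 0.17 (SE, adjusted p = 5.12e-08). C4b rose from a median of 50.3 CPM (33.2 to 62.7) to 88.5 CPM (54.8 to 106), or 0.78 ± 0.09 on the log2 scale (SE, adjusted p = 8.10e-12), and all 18 older mice were above the 3-month median. In both substrates the groups thus overlapped at their edges.

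The C1 proteases and their inhibitor rose as well. C1ra changed by 0.61 ± 0.08 on the log2 scale (SE, adjusted p = 8.42e-09), from a median of 18.4 to 28.3 CPM. C1s1 changed by 0.50 ± 0.07 (adjusted p = 1.45e-08), from 60.8 to 87.5 CPM, and Serping1 by 0.51 ± 0.08 (adjusted p = 7.60e-08), from 70.9 to 104 CPM. In the 3 batches the log2 change was between 0.37 and 0.71 for these genes, and between 0.56 and 1.35 for C4b and C3, and all 5 were called in each batch.

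C2 was called only over this longest span, at 0.30 ± 0.11 on the log2 scale (SE, adjusted p = 0.0206). Its medians were 2.57 CPM at 3 months (1.57 to 3.90) and 3.29 CPM at 28 months (2.12 to 4.72), and 12 of 18 older mice exceeded the median of the younger ones. C2 was called within batch 3 but not within batches 1 and 2, where its log2 changes were 0.18 and 0.29. Cfb changed by -0.04 ± 0.08 (SE, adjusted p = 0.725), with a 95% interval of the fold change from 0.873 to 1.09. Cfd changed by 1.13 ± 0.62 (SE, adjusted p = 0.134), with the same change as C3 but an SE of 0.62 against 0.17. It was called when only the mice of 3 and 28 months were fitted (log2 change 1.37, adjusted p = 0.0459) and within batch 3 (2.59, adjusted p = 0.0860), but not within batch 1 (0.34, adjusted p = 0.879) or batch 2 (1.48, adjusted p = 0.328), nor without the 3 mice with pancreatic acinar RNA (0.85, adjusted p = 0.271). Without these 3 mice, which include the 2 with the most Cfd, its change from 15 to 24 months was 0.49 in place of 1.06.

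When all ages were tested together, 6 of 8 members depended on age, against 54.9% of all genes. Of the 8 members, 0 departed from a straight line in months by edgeR (16.2% of all genes did), with 0 at an unadjusted p below 0.05 and 0 called by DESeq2. The steps that passed the test fell between 15 and 24 months, which is the longest interval between neighbouring ages. A step at that age was thus not told apart from a steady rise. Serping1 came closest to a departure (adjusted p = 0.198), and the other 7 had an adjusted p of at least 0.404.

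Markers of macrophages and endothelium moved with the rise of the 5 genes, and the sum of the epithelium markers was lower at the older ages. The 8 macrophage markers summed to between 227 and 342 CPM at 15 months, 248 and 443 CPM at 24 months, and 191 and 487 CPM at 28 months, and 4 of 8 were called higher at 24 than at 15 months (6.28% of all genes) and 5 of 8 at 28 than at 3 months (23.5% of all genes). Of the 6 endothelial markers 5 were called higher in each of these comparisons. The 8 colon epithelium markers had a median sum of 35736 CPM at 3 months, 35300 CPM at 15 months, 32475 CPM at 24 months and 30759 CPM at 28 months. Of these 8, 0 were called lower at 24 vs 15 months (7.24% of all genes) and 3 at 28 vs 3 months (25.9% of all genes). The 8 fibroblast markers summed to between 563 and 1121 CPM at 15 months and 600 and 1235 CPM at 24 months, with 1 of 8 called higher, and from 3 to 28 months 2 were higher and 2 lower. Of the 6 mesothelium markers 1 was called higher and 1 lower at 24 vs 15 months (median log2 change 0.46), and 4 higher and 2 lower at 28 vs 3 months (1.15). Of the 6 smooth muscle markers 0 were called in either comparison. They summed to between 828 and 5241 CPM at 3 months and between 3295 and 4619 CPM at 15 months. The part of these cell types in the rise was not tested. The fits that follow use marker levels from the same libraries and assign no part of the rise to a cell type.

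With the mean macrophage marker level of each mouse as a covariate, the log2 change from 15 to 24 months was 0.19 for C1ra, 0.12 for C1s1, 0.18 for Serping1 and 0.24 for C4b, each still called, and 0.28 for C3, which was not (adjusted p = 0.143). From 3 to 28 months these changes were 0.30, 0.24, 0.25 and 0.50, and 0.62 for C3, all 5 called, whereas C2 with 0.10 was not (adjusted p = 0.458). With the fibroblast markers instead, the 5 genes remained called in both comparisons, with changes of 0.19 to 0.36 from 15 to 24 months.

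Among mice of the same age and batch, 5 members varied together, C2 and Cfd followed them more loosely, and no pair with Cfb passed the threshold. Each mouse's log2 CPM was set against the mean of its age and batch, and 140 relations were computed, of which 28 were pairs of members and the rest paired members with marker or response lists. P-values came from 100000 two-sided permutations within age and batch, adjusted over the 140 relations for r and for rho apart. The smallest p they can give is 1e-05, which became 3.33e-05 for r and 3.68e-05 for rho. Of the 28 pairs 20 passed an adjusted p of 0.1.

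C1ra and C1s1, the protease pair of C1, were the closest pair (Pearson's r = 0.94, Spearman's rho = 0.94, n = 83, both at the smallest permutation p). Without the 2 mice farthest from the median r was 0.93, and within the batches 0.94, 0.93 and 0.95. Serping1 followed C1ra at r = 0.93 (rho = 0.92) and C1s1 at r = 0.91 (rho = 0.91). C4b correlated with these 3 genes at r = 0.78 to 0.82, and C3 with the 3 and with C4b at r = 0.70 to 0.74, all at the smallest permutation p for r and for rho. Within the 17 mice of 24 months, C4b had r of only 0.12, 0.10 and 0.17 with C1ra, C1s1 and Serping1, against 0.73 to 0.93 within the other ages. With C3 it had r of 0.25 at 24 months and 0.71 to 0.90 at the other ages. These differences between ages were not tested.

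C2 correlated with C1ra at r = 0.50 (rho = 0.48, adjusted permutation p = 3.33e-05 and 1.33e-04), but this was 0.66, 0.21 and 0.63 in the 3 batches and thus weak in batch 2. Within the ages of 3, 9, 15, 24 and 28 months it was 0.34, 0.50, 0.48, 0.03 and 0.78, so that it was near 0 at 24 months. Its relation to the interferon-induced genes was r = 0.54 (rho = 0.52, adjusted permutation p = 6.51e-05 and 1.02e-04), and within the batches 0.71, 0.50 and 0.41. Cfb had r between -0.18 and 0.24 with the other 7 members, and 0 of these 7 pairs passed the threshold. These pooled values cover opposite signs at different ages. Cfb had r of 0.44, 0.48 and 0.51 with C1ra, C1s1 and Serping1 within 15 months, but -0.58, -0.54 and -0.56 within 24 months. With C3 it had r of 0.23 within 15 months and -0.56 within 24 months, and these differences were not tested either. Its neighbour C2 gave the highest value (adjusted permutation p = 0.128), although both may share read pairs through Gm20547.

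**Figure D3:**
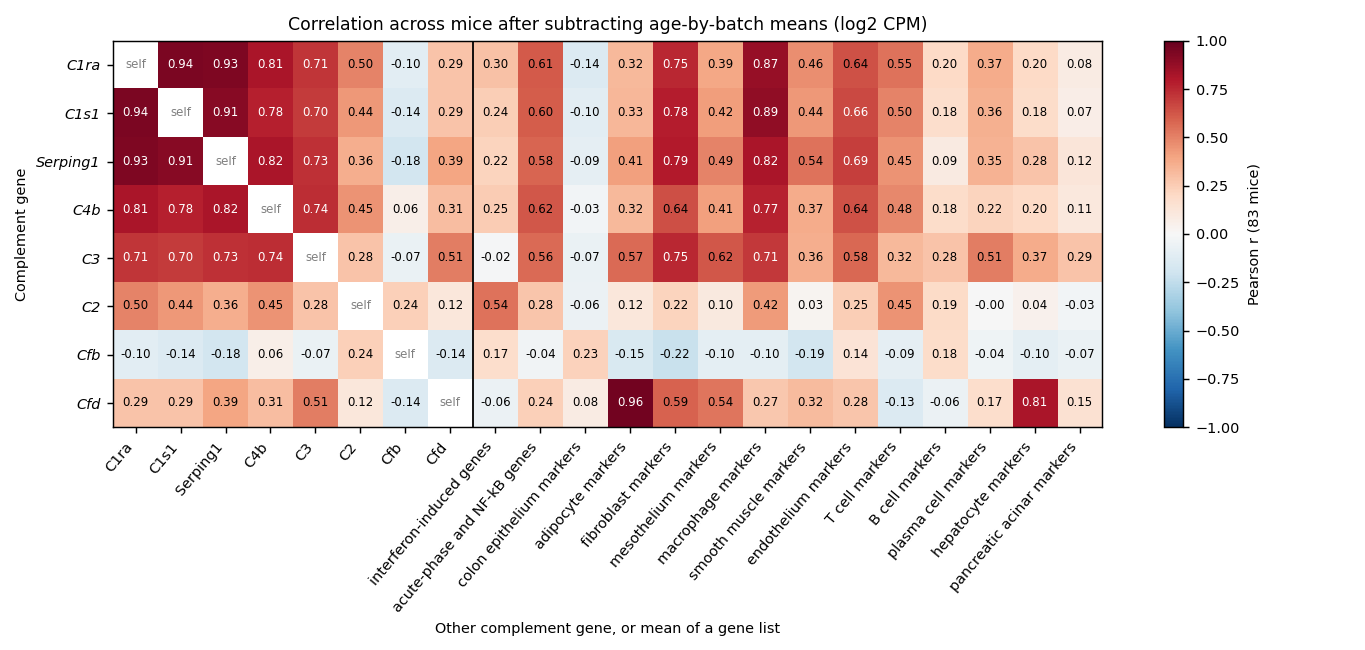
Pearson's r across 83 mice between each complement gene (rows) and the other complement genes or the mean of a gene list (columns), on log2 CPM after subtraction of the mean of each age and batch. C1ra, C1s1, Serping1, C4b and C3 form a block of r from 0.70 to 0.94, Cfb stays between -0.22 and 0.24, and Cfd reaches 0.96 with the adipocyte markers.

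The macrophage and fibroblast lists are given first. C1s1 correlated with the macrophage markers at r = 0.89 (rho = 0.88) and with the fibroblast markers at r = 0.78 (rho = 0.81), and C1ra at 0.87 (rho = 0.87) and 0.75 (rho = 0.76). For Serping1 the values were 0.82 (rho = 0.83) and 0.79 (rho = 0.82), for C4b 0.77 (rho = 0.77) and 0.64 (rho = 0.63), and for C3 0.71 (rho = 0.73) and 0.75 (rho = 0.74), all at the smallest permutation p. The 5 genes also correlated with the endothelium markers (r = 0.58 to 0.69) and with the acute-phase and NF-kB genes (r = 0.56 to 0.62), at the smallest permutation p for r. The mesothelium (0.39 to 0.62), adipocyte (0.32 to 0.57), smooth muscle (0.36 to 0.54) and T cell (0.32 to 0.55) lists passed the threshold with all 5 as well. With the colon epithelium markers r was between -0.14 and -0.03 for the 5 genes, with adjusted permutation p-values of at least 0.452, but rho was lower and passed the threshold for C1ra (-0.30, adjusted permutation p = 0.0270), Serping1 (-0.27, 0.0493) and C1s1 (-0.25, 0.0608). Without the 2 mice farthest from the median, r was between -0.31 and -0.19. The pooled values cover opposite signs, since r was between 0.22 and 0.60 within 15 months and between -0.59 and -0.33 within 28 months. The macrophage relations held within the batches, where r was between 0.70 and 0.91. Within the mice of 24 months, C4b had r of 0.0011 with the fibroblast markers, against 0.64 to 0.88 within the other ages, and of 0.51 with the macrophage markers, against 0.62 to 0.91.

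The 3 genes with the most similar course over the mice, by Spearman's rho among all genes tested and outside the 9, are given as a description. For C1ra they were Csf1r, the receptor on which macrophages depend (0.89), C1qc (0.87) and the matrix proteoglycan gene Bgn (0.86), and for C1s1 Csf1r (0.89), Bgn (0.88) and the extracellular superoxide dismutase gene Sod3 (0.86). Serping1 was followed by Pcolce, an enhancer of collagen processing (0.89), Sod3 (0.87) and Vim (0.87), and C3 by Sod3 (0.79), Fn1, which encodes fibronectin (0.77), and Ccdc80 (0.77). C4b was nearest to C1qa (0.77), C1qc (0.77) and Csf1r (0.75). C2 was followed by Sp140 (0.61), Slfn2 (0.59) and the interferon-induced gene Ifit2 (0.58), and Cfb by Trim14 (0.59), Eif4ebp3 (0.58) and Ceacam20 (0.56), so these 2 had no neighbour as near as the others did.

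Cfd followed adipocyte genes across the libraries. Its nearest genes were Adipoq, which encodes the adipocyte hormone adiponectin (rho = 0.98), Car3 (0.97) and the adipokine gene Retn (0.96). Cfd ranged from 0.403 to 64.8 CPM at 3 months, from 0.032 to 85.5 CPM at 9 months, from 0.056 to 51.6 CPM at 15 months, from 0.080 to 125 CPM at 24 months, and from 0.125 to 180 CPM at 28 months. The lowest mouse, replicate 6 of 9 months, had 1 count of Cfd and 0 of Adipoq, and the 2 highest, replicate 14 of 28 months and replicate 16 of 24 months, had 36.8 and 39.3 CPM of Adipoq and are among the 3 mice with pancreatic acinar RNA.

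Cfd correlated with the adipocyte markers at r = 0.96 (rho = 0.96, both at the smallest permutation p), and at 0.97, 0.96 and 0.96 in the batches. These 8 markers summed to between 43.2 and 319 CPM over the mice, Adipoq was at 0 in 2 mice and Plin1 and Retn in 4 each, and 5 of 8 were called higher at 28 than at 3 months, against 23.5% of all genes. Cfd also followed the hepatocyte list (r = 0.81, rho = 0.81, both at the smallest permutation p), in which Fga, Fgb and Serpina1a were at 0 in 58, 53 and 55 mice, Alb was at most 2.89 CPM, and Cyp2e1, which adipose tissue also expresses, reached 49.9 CPM. With the adipocyte markers as a covariate, Cfd was called at 28 vs 3 months with a log2 change of 0.45 (adjusted p = 0.0349). Of the other members, C3 had the highest correlation with Cfd (r = 0.51, rho = 0.45, adjusted permutation p = 9.33e-05 and 2.98e-04). With C1ra, C1s1, Serping1 and C4b, Cfd had r of 0.07, 0.03, 0.11 and 0.14 in batch 3. In batch 1 these values were between 0.39 and 0.71, and in batch 2 between 0.24 and 0.43.

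**Figure D4:**
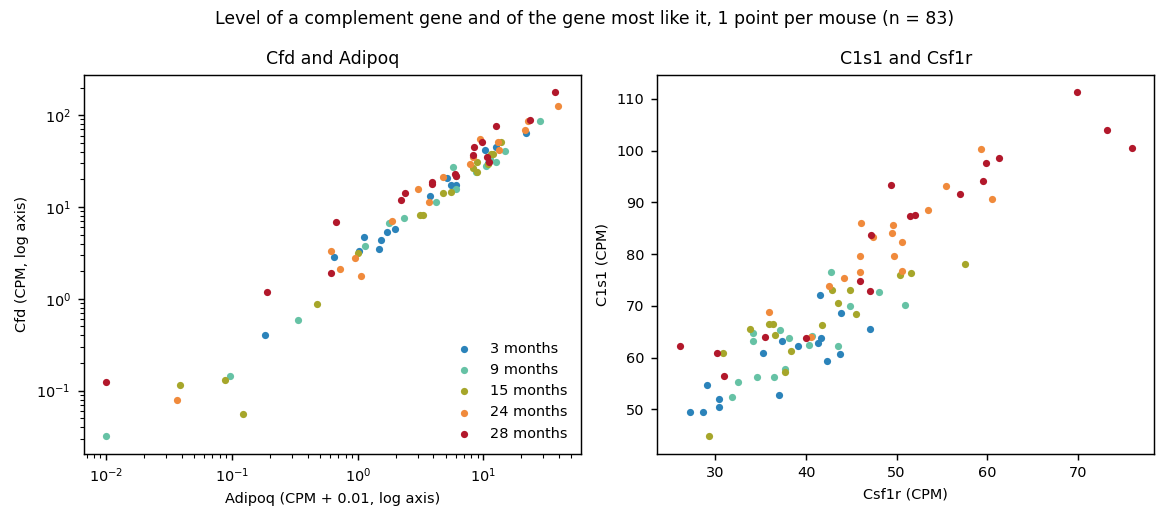
Left, Cfd (CPM, logarithmic y axis) against Adipoq (CPM + 0.01, logarithmic x axis); right, C1s1 against Csf1r (CPM, linear axes), with 1 point per mouse coloured by age (n = 83). Cfd rises with Adipoq over the whole range at every age, from 0.032 to 180 CPM, and C1s1 rises with Csf1r, with the highest mice at 28 months.

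Around these 9 genes stand 44 other genes of the complement system, of which 43 had a row and 33 passed the filter. The counts of these lists stand beside 6.28% of all genes called higher and 7.24% lower at 24 vs 15 months, and 23.5% higher and 25.9% lower at 28 vs 3 months. Among the recognition molecules of the classical pathway, C1qa, C1qb and C1qc, which encode the 3 chains of C1q, were called higher at 24 than at 15 months, with log2 changes of 0.24 ± 0.09, 0.28 ± 0.10 and 0.26 ± 0.09 (SE, adjusted p = 0.0799, 0.0515 and 0.0639). They were 3 of 4 starters of the classical pathway tested, and the same 3 were higher at 28 than at 3 months by 0.32 to 0.38. C4a, the paralogue of C4b, was not called (-0.12 ± 0.12 at 28 vs 3 months). C1rb and C1s2, the paralogues of C1ra and C1s1, had 77 and 344 counts in all and were not tested.

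In the lectin pathway 0 of 5 genes tested were called at 24 vs 15 months by edgeR (13.5% of all genes were), and all 5 at 28 vs 3 months (49.4% of all genes), 4 higher and 1 lower. Colec11, a soluble collectin, had the largest change (1.30 ± 0.19, SE, adjusted p = 3.45e-08) at 0.54 TPM on average. Masp1, which encodes a protease of this pathway, changed by 0.52 ± 0.12, Fcna by 0.36 ± 0.07 and Colec12 by 0.22 ± 0.08, while Colec10 fell by 0.41 on the log2 scale. Masp2, which encodes another protease of this pathway, had 230 counts in all and was not tested. Mbl2 and Fcnb had 5 and 1 counts in all.

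The alternative and terminal pathway did not move in 1 direction. Of 6 genes tested, 0 were called at 24 vs 15 months, and at 28 vs 3 months C6 (0.63 ± 0.15) and C7 (0.53 ± 0.16) of the membrane attack complex were higher, while C9 (-0.71 ± 0.16), Hc, the gene of C5 (-0.38 ± 0.09), and Cfp, the gene of properdin (-0.19 ± 0.09), were lower. C6 and C7 were also called higher at 9 than at 3 months, by 0.53 and 0.61, and departed from a straight line (adjusted p = 0.00796 and 0.00202), unlike the 8 members tested. C8a and C8b had 24 counts each.

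The regulators, which restrain the cascade on host cells and in fluid, changed in both directions. Of 10 regulators tested, 2 were called higher, among them Vtn (0.36 ± 0.13), and 1 lower, C4bp (-0.36 ± 0.11), at 24 than at 15 months. At 28 vs 3 months 4 were higher, among them Vsig4 (1.39 ± 0.24), Cd46 (0.56 ± 0.11) and Vtn (0.48 ± 0.13), and 2 lower, C4bp (-0.48 ± 0.10) and Cr1l (-0.06 ± 0.03). C4bp, whose product binds a fragment of the C4 protein, changed at the RNA level in the direction opposite to that of the gene C4b, and the proteins were not measured.

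Of the 8 receptors, 5 were called higher at 24 than at 15 months, C3ar1, the receptor of the C3a fragment (0.32 ± 0.11), the integrin genes Itgam (0.26 ± 0.09), Itgax (0.33 ± 0.13) and Itgb2 (0.36 ± 0.11), and Cd93 (0.21 ± 0.07). At 28 vs 3 months C3ar1 (0.50 ± 0.11), C5ar1 (0.29 ± 0.12), Itgam, Itgb2 and Cd93 were higher. Cr2, which marks B cells and follicular dendritic cells, was lower by a log2 change of -3.06 ± 0.46 (SE, adjusted p = 9.78e-08), and 5 of the 6 B cell markers were also called lower. Itgam shares 68.7% of its exon bases with Gm49368, which had 32 counts in all.

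**Figure D5:**
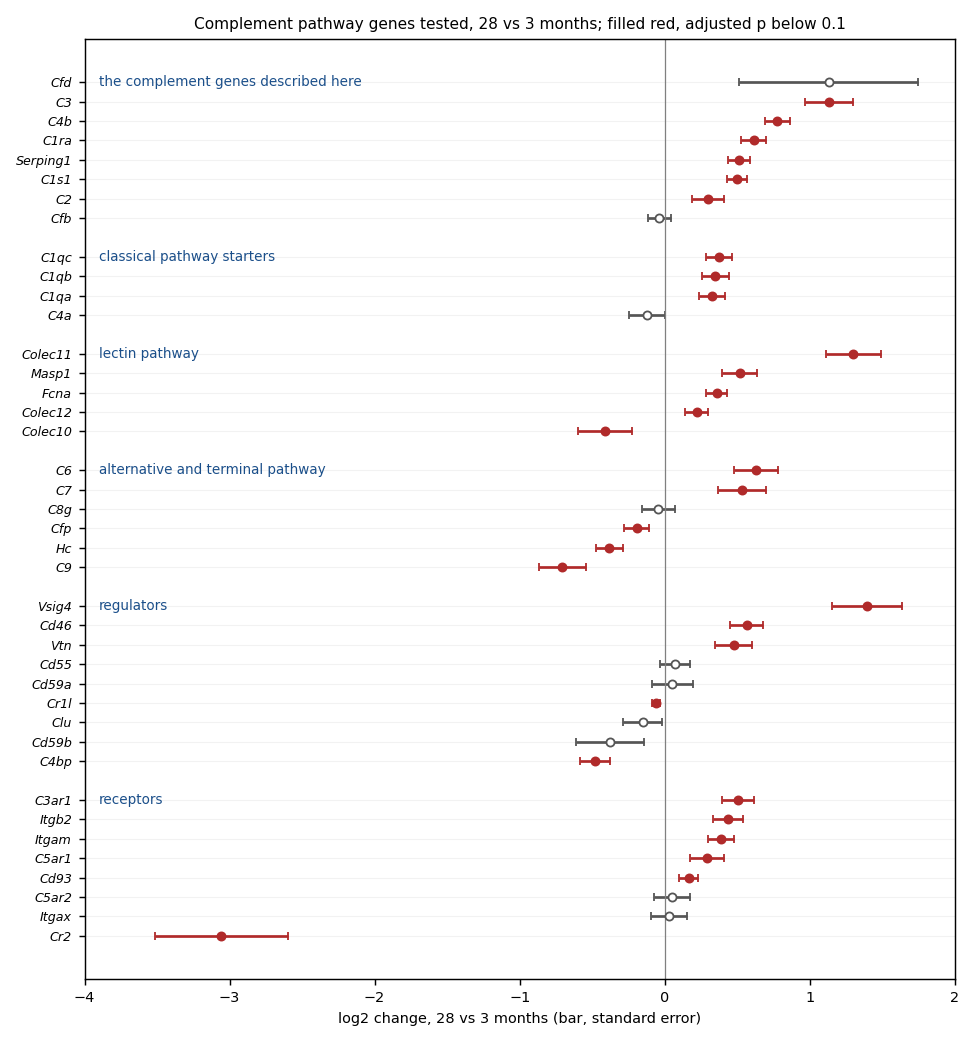
Log2 change at 28 vs 3 months (x axis) with its standard error as a bar for the 8 complement genes and the other complement pathway genes tested, except 1 regulator not reported here, grouped by role, with filled red points where the adjusted p was below 0.1. C3, Colec11 and Vsig4 are filled and lie above 1, Cfd lies there unfilled with a wide bar, and the filled points below 0 are Cr2 at -3.06, C9, C4bp, Colec10, Hc, Cfp and Cr1l.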

How the data were processed

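Total RNA of the colon of 83 mice was enriched for polyA RNA and made into strand-specific libraries. Per the labels and the methods, the authors trimmed reads with cutadapt 2.8, aligned them to GRCm38 with HISAT2 2.1.0, kept uniquely mapped reads with SAMtools 1.9 and counted properly paired reads per gene with featureCounts of Subread 2.0.1. The authors deposited these raw counts, 1 whole number for each gene in each mouse, not normalized. Symbols, positions and exon lengths came from GENCODE on GRCm38, an earlier release than the authors used. Ages and batches came from the labels.

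Counts were filtered (filterByExpr by age), scaled by TMM and fitted with edgeR 4.0.16 in R 4.3.3 with batch and age over all mice. CPM used the TMM library sizes and TPM the merged exon lengths. Log2 CPM used a prior count of 2. The 95% intervals are the change plus or minus the normal quantile times its SE. P-values treat mice as replicates. Python 3.11.15 with numpy 2.4.6, pandas 2.3.3, scipy 1.17.1 and matplotlib 3.10.9 did the rest. The test was checked on simulated data. DESeq2 1.42.0 and other settings were alternatives. Named genes were the 9, those of the pathway, interferon and acute-phase lists, and the 3 most similar to each tested member. The members and lists were chosen with earlier results of these data known. Single genes of the pathway and interferon lists are counted in their lists but not reported here.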

Additional observations from a re-analysis of the deposited data

How the results depend on the processing

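Across the alternatives, 576 log2 changes of single members kept their side of the threshold, 19 lost a call and 5 gained one, and no called change reversed. Changes that were not called could change sign, as for Cfd. Of the 5 members called at 24 vs 15 months, 0 passed the threshold within batch 1, batch 2 or batch 3 alone, where fewer mice were tested, and the 6 called at 28 vs 3 months were between 5 and 7 under the alternatives. With the adipocyte or the fibroblast markers as a covariate, 1 member was called at 28 vs 24 months in place of 0 (Cfd and Serping1, respectively), and 1 in place of 0 departed from a straight line in each of these fits. The cause was not tested. The 20 correlated pairs of members were 20 with a prior count of 0.5, 20 in batch 1, 13 in batch 2 and 15 in batch 3. With the replicate number of the labels as a replicate block, 5 members were called at 24 vs 15 months and 6 at 28 vs 3 months, and no count of members changed in the other comparisons. The numbers do not pair the mice, since the deviations of same-numbered mice of different ages correlated at a median of 0.01 in 161 pairs. Leaving out the mice with pancreatic acinar RNA or with the lowest epithelial sum, chosen after seeing the data, changed no count. Depth limits Cfi and the other genes not tested, and overlapping exons limit C2 and Cfb.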

Other observations

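A list of 12 interferon-induced genes and one of 11 acute-phase and NF-kB genes were measured beside complement. At 28 vs 3 months 6 of the 12 interferon-induced genes were called higher and 0 lower by edgeR (23.5% of all genes were called higher and 25.9% lower), with a median log2 change of 0.17. Nlrc5 (0.91 ± 0.14), Tap1 (0.66 ± 0.11), Psmb9 (0.44 ± 0.10) and Psmb8 (0.40 ± 0.11), which serve the presentation of peptides on MHC class I, were among those higher, with Gbp2 (0.64 ± 0.17). Ifit1, Ifit3 and Isg15, which act against viruses, were not called and changed by 0.14 ± 0.13, 0.07 ± 0.17 and -0.10 ± 0.16.

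Of the 10 acute-phase and NF-kB genes tested, 5 were called higher and 4 lower at 28 than at 3 months, beside 23.5% and 25.9% of all genes. Lcn2 (0.80 ± 0.11), Osm (0.55 ± 0.18), Tnf (0.43 ± 0.13), Lbp (0.42 ± 0.10) and Nfkbia (0.16 ± 0.06) were higher, while the serum amyloid genes Saa1 (-1.29 ± 0.18), Saa2 (-1.10 ± 0.24) and Saa3 (-0.60 ± 0.20) and Il1b (-0.47 ± 0.23) were lower. Across mice of the same age and batch the mean of this list correlated with C3 (r = 0.56, rho = 0.56, adjusted permutation p = 3.33e-05 and 7e-05) and with C4b (r = 0.62, rho = 0.62, adjusted permutation p = 3.33e-05 and 3.68e-05), although Saa1 and C3 changed in opposite directions with age.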
